A study of Mus musculus with 12 samples.

Results

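Intraepithelial lymphocytes (IEL) that carry the CD8αα form of the CD8 coreceptor were compared, gene by gene, with CD8αβ IEL from the same kind of transfer. The comparison used 6 of the 12 RNA-seq libraries of the series, 3 labelled CD8αα from CD8αβ and 3 labelled CD8αβ IEL, and covered every gene that passed the filter on low counts (12622 genes). In both groups the host was a Rag2-/- mouse, which makes no T or B cells of its own. Each host had received conventional CD8αβ T cells that had been taken from lymph nodes, the donors being wild type for Themis, in a single injection into a vein. Small intestine was taken 1 week later, and IEL sorted as TCRβ CD8αα or as TCRβ CD8αβ gave the RNA. The series asks how CD8αα IEL recruited from CD4 and from CD8 T cells differ. The comparison described here sets IEL labelled CD8αα from CD8αβ against those labelled CD8αβ IEL. The other 6 libraries came from hosts given CD4 T cells and entered the fit to share its estimate of spread. Age, sex and pooling of the animals and the source of each replicate are unknown here, since no label gives them, and a p-value thus reflects sample-to-sample spread, which may be technical. Rag2-deficient hosts keep their innate lymphocytes, myeloid cells and epithelium, and the gut epithelium of mice holds innate lymphocytes that carry CD8αα. The words rose and fell below compare the labelled groups and do not mean that transferred cells changed. The words progeny and origin follow the labels, and descent from the transferred cells was not tested.

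CD8 is a coreceptor that binds class I molecules of the major histocompatibility complex. The CD8αβ heterodimer brings the kinase LCK to the T cell receptor, whereas the CD8αα homodimer binds the thymus leukaemia antigen on gut epithelium and is found on many IEL, with or without CD8β. The T cell receptor signals through the CD3 chains, the kinases LCK and ZAP-70 and the adaptor LAT, while innate lymphocytes and natural IEL also use the Fc receptor γ chain, DAP12 and the kinase SYK.

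Libraries of CD8αβ IEL held 6099918 to 9443881 counts and those of CD8αα from CD8αβ 9313173 to 11070734. A gene with 3 counts stood at 0.271 to 0.492 CPM (counts scaled to the size of the library) at these totals, and 3 counts are the most that a count of 0 allows. Values for a group are given below in the order of replicates 1, 2 and 3, and a pair of values is the mean of 3 CD8αβ IEL libraries followed by the mean of 3 CD8αα libraries, with ± for the SD. Brackets after values give the log2 fold change of CD8αα over CD8αβ IEL ± its standard error (SE) and the p adjusted over all tested genes. Sex-linked transcripts separated the libraries. The summed level of 4 Y-linked genes was 374, 233 and 356 CPM in CD8αβ IEL and 0.374, 321 and 0.689 CPM in CD8αα, and Xist, the transcript of the inactive X chromosome, was at 6.93, 0.528 and 13 and 382, 0.85 and 373 CPM. Replicates 1 and 3 of CD8αα thus had Xist and almost no Y-linked transcripts, unlike the other 4 libraries. Counts, or the median change of a list, are therefore mostly also given with CD8αα replicate 2 alone, where that single library was assumed to vary like the other groups. Whether cells of another animal than the donor entered those libraries was not tested. Transcripts of the CD3 chains, which a TCRβ sort should hold, were low for 3 of 4 chains in all CD8αα libraries (values below), which goes against their label.

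CD8αβ IEL replicate 1 stood high and replicate 3 low at genes that have processed pseudogenes. These are retrotransposed copies of messenger RNA that share their parent's sequence. Of 40 genes over 8-fold above both other CD8αβ IEL libraries in replicate 1, 19 had such a copy. Of 42 genes over 8-fold below both in replicate 1, 0 had. Of 15 genes over 8-fold below both in replicate 3, 1 had. Among tested genes that are not pseudogenes themselves, 1240 had a copy and 11199 had none. The low level of replicate 3 thus rests on the medians that follow and not on its 15 genes. For 130 tested genes with 5 or more such copies by sequence, the median log2 CPM of replicate 1 was 0.47 above the mean of replicates 2 and 3, that of replicate 2 was −0.09 and that of replicate 3 was −0.62 against the other 2 libraries. In 11199 genes with no such copy these medians were 0.00, 0.00 and 0.03. The CD8αα libraries stayed between −0.10 and 0.13 in the same 130 genes. Of these genes 79 (60.8%) were called lower in CD8αα from CD8αβ, against 15.1% of all tested genes, and 2 were called higher. Without CD8αβ IEL replicate 1 the counts were 45 and 1. Among genes without a copy, 84.7% of 3498 calls were kept without that library, among genes with 5 or more 56.8% of 81.

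**Figure D1:**
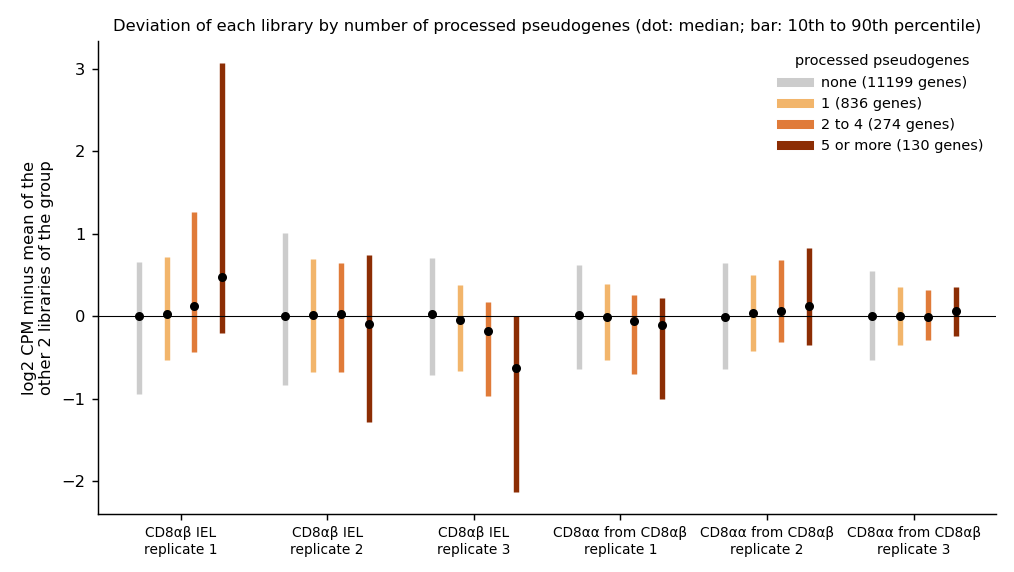
Deviation of each of the 6 libraries, as log2 CPM minus the mean of the other 2 libraries of its group (y axis), for tested genes grouped by their number of processed pseudogenes. Dots are medians and bars run from the 10th to the 90th percentile of genes. At 5 or more pseudogenes the median of CD8αβ IEL replicate 1 is 0.47 and that of replicate 3 is −0.62, while the 3 CD8αα libraries lie between −0.10 and 0.13.

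The sorted populations differed at a large share of the transcriptome. Of 12622 genes tested, 3940 were called by edgeR's quasi-likelihood test at an adjusted p under 0.05 (31.2%), of which 2030 were higher in CD8αα from CD8αβ (16.1%) and 1910 lower (15.1%). Libraries of the groups did not overlap at 5533 genes (43.8%). Where no share stands beside a list below, its counts are to be read against the 16.1% higher and 15.1% lower. At least 2-fold were 1295 of the higher and 1235 of the lower genes, at least 8-fold 439 and 415, and at least 64-fold 135 and 133. Without CD8αβ IEL replicate 1, 3540 genes were called and 3275 of the 3940 calls were kept. With CD8αα replicate 2 alone, 1871 genes were called, of which 1831 were among the 3940.

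**Figure D2:**
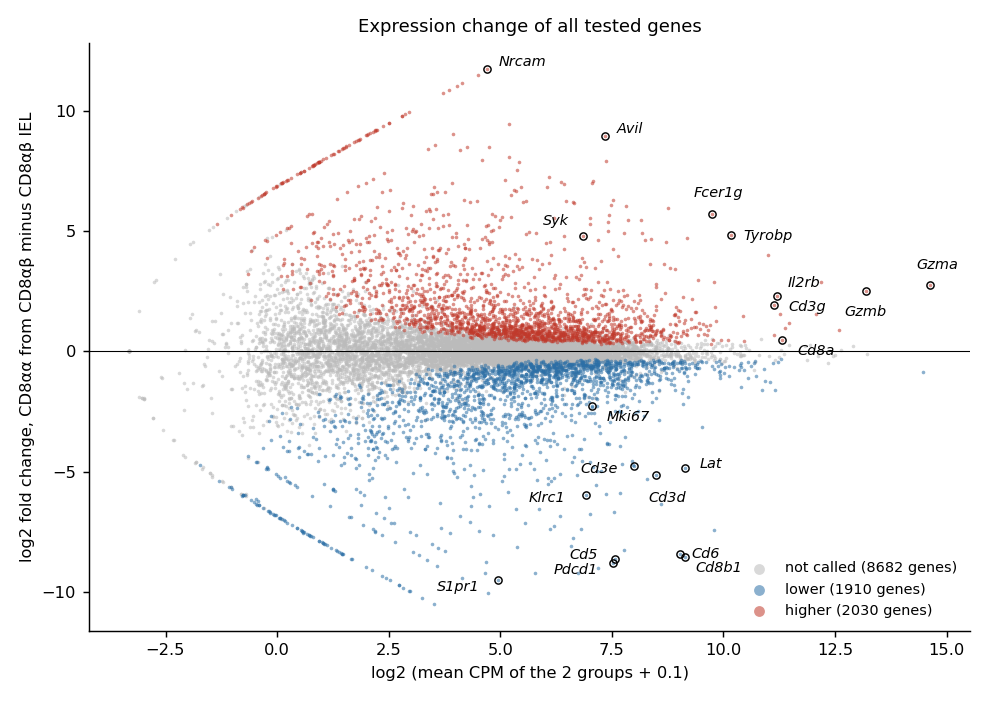
Log2 fold change of CD8αα from CD8αβ over CD8αβ IEL (y axis) against log2 of the mean CPM of both groups plus 0.1 (x axis) for the 12622 tested genes. Red points are the 2030 genes called higher, blue points the 1910 called lower and grey points the rest. Straight outer edges are genes with 0 reads in a group, whose fitted fold change depends on the prior count.

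The largest rises were in genes with almost no reads in CD8αβ IEL. Nrcam, a neuronal cell adhesion molecule, had 0 reads in CD8αβ IEL and 48.7, 52.3 and 55.9 CPM in the CD8αα libraries, at least 395-fold higher. Wdr86, which encodes a WD-repeat protein, and Niacr1, the receptor for niacin, also had 0 reads and were at least 346-fold and at least 269-fold higher. These bounds set 3 reads over the whole group in place of 0. Grb10, an adaptor that restrains insulin and growth factor receptors, had 2 reads in CD8αβ IEL and 75.1, 70.3 and 72.7 CPM in CD8αα, a ratio of 829 with a 95% counting interval of 229 to 6849. Avil, which encodes the actin-binding protein advillin, was at 0.97, 0.739 and 0.165 CPM in CD8αβ IEL and 358, 319 and 304 CPM in the CD8αα group (log2 fold change 8.93 ± 0.78 SE, edgeR adjusted p = 1.61e-06). Every CD8αα library was thus far above every CD8αβ IEL library at these genes, which the choice of genes required. Myh7b, a myosin heavy chain, was at 0.222 and 73.4 CPM on average in CD8αβ IEL and CD8αα, Gcet2, a gene of germinal centre B cells, at 0.185 and 47.9 CPM, and Mrgpra9, a receptor of the Mas-related family, at 0.101 and 37.9 CPM.

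The largest falls included receptors of T cell activation and tissue exit. Pdcd1, the gene of PD-1, an inhibitory receptor, was at 274, 409 and 446 CPM in CD8αβ IEL and 1.12, 0.85 and 0.804 CPM in the CD8αα group (log2 fold change −8.63 ± 0.47 SE, edgeR adjusted p = 2.52e-08). S1pr1, the sphingosine phosphate receptor that lets lymphocytes leave tissue, was at 78.8, 62.9 and 44.3 CPM in CD8αβ IEL and had 2 reads in CD8αα, a ratio of 908 with a 95% counting interval of 251 to 7504. Atp8b4, a phospholipid flippase, had 1 read in CD8αα, a ratio of 1419 with a 95% counting interval of 254 to 56113. The groups did not overlap at any of them, again by choice. Gpr15, a receptor for homing to the colon, also had 1 read (ratio of 938 with a 95% counting interval of 168 to 37109), and S100a4, a calcium-binding protein of memory and effector T cells, had 2 (ratio of 764 with a 95% counting interval of 211 to 6312). Ubash3a, which restrains signalling of the T cell receptor, was at 239, 186 and 217 CPM in CD8αβ IEL and 0.467, 0.106 and 0.459 CPM in the CD8αα group (log2 fold change −9.21 ± 0.40 SE, edgeR adjusted p = 4.65e-09). Cd2 and Cd5 completed the 8 genes and are described below.

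Coreceptor transcripts followed the sort. Cd8b1 (ENSMUSG00000053044, chromosome 6, 71322836 to 71337477, mm10), the β chain, was at 1166, 1086 and 1118 CPM in CD8αβ IEL and 3.46, 2.87 and 2.53 CPM in the CD8αα group. Cd8a (ENSMUSG00000053977, chromosome 6, 71373427 to 71379171) was at 2172, 2222 and 2083 CPM in CD8αβ IEL and 2746, 2902 and 3248 CPM in the CD8αα group. All 3 CD8αα libraries were above the CD8αβ IEL libraries in Cd8a and at most at 3.46 CPM in Cd8b1, and since these proteins defined the sort, both check the labels only. Cd4 was low throughout, at 11.6, 42.2 and 15.8 CPM in CD8αβ IEL and 3.55, 9.35 and 7.92 CPM in the CD8αα group.

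Genes of the CD3 complex did not move together. Cd3e (ENSMUSG00000032093, chromosome 9, 44998743 to 45009590), which encodes CD3ε, was at 574, 403 and 503 CPM in CD8αβ IEL and 22.1, 18.9 and 14.1 CPM in the CD8αα group (log2 fold change −4.74 ± 0.35 SE, edgeR adjusted p = 3.18e-07). Cd3d (ENSMUSG00000032094, chromosome 9, 44981793 to 44987052), the CD3δ chain, was at 726, 749 and 610.2 CPM in CD8αβ IEL against 17.9, 20.4 and 21.1 CPM in CD8αα (−5.13 ± 0.27, edgeR adjusted p = 2.03e-08). Cd247 (ENSMUSG00000005763, chromosome 1, 165788681 to 165877276), the CD3ζ chain that carries most of the signalling motifs, was at 415, 380.5 and 427 CPM in CD8αβ IEL against 41.1, 32.6 and 30.7 CPM in CD8αα (−3.55 ± 0.20, edgeR adjusted p = 3.76e-08). All 3 CD8αα libraries were far below all CD8αβ IEL libraries at the 3 genes. Cd3g (ENSMUSG00000002033, chromosome 9, 44969572 to 44980431), the CD3γ chain, ran the other way, at 932, 1001 and 901 CPM in CD8αβ IEL against 3293, 3777 and 3567 CPM in CD8αα (1.91 ± 0.11, edgeR adjusted p = 4.9e-08). Genes of T cell receptor constant regions are not analysed here. In bulk RNA, fewer cells that express a gene and less RNA of it per cell cannot be told apart.

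Of 12 genes for CD3 chains and the general T cell surface, 10 fell and 2 rose, with a median log2 fold change of −4.94 (all tested genes, 0.00). The counts were the same without CD8αβ IEL replicate 1, and 9 fell and 2 rose with CD8αα replicate 2 alone. Cd5, which dampens T cell receptor signals, was at 397, 395 and 311 CPM in CD8αβ IEL against 1.31, 0.319 and 0.804 CPM in CD8αα. Cd2, the adhesion receptor for CD48, was at 292, 273 and 302 CPM in CD8αβ IEL against 0.28, 1.27 and 0.115 CPM in CD8αα. Cd28, the main costimulatory receptor of T cells, was at 526, 301 and 488 CPM in CD8αβ IEL against 2.34, 0.85 and 1.03 CPM in CD8αα. Cd6, a relative of Cd5, fell from 1045 to 3.04 CPM and Thy1, the Thy-1 antigen of mouse T cells, from 196 to 0.894 CPM, both given as group means. At Cd2, Cd5, Cd28 and Thy1 every CD8αα library was under 3 CPM. Cd7, a receptor shared by T cells and innate lymphocytes, was the member other than Cd3g that rose, at 1021, 1353 and 947 CPM in CD8αβ IEL against 7901, 8663 and 8035 CPM in CD8αα (2.89 ± 0.23, edgeR adjusted p = 6.74e-07).

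**Figure D3:**
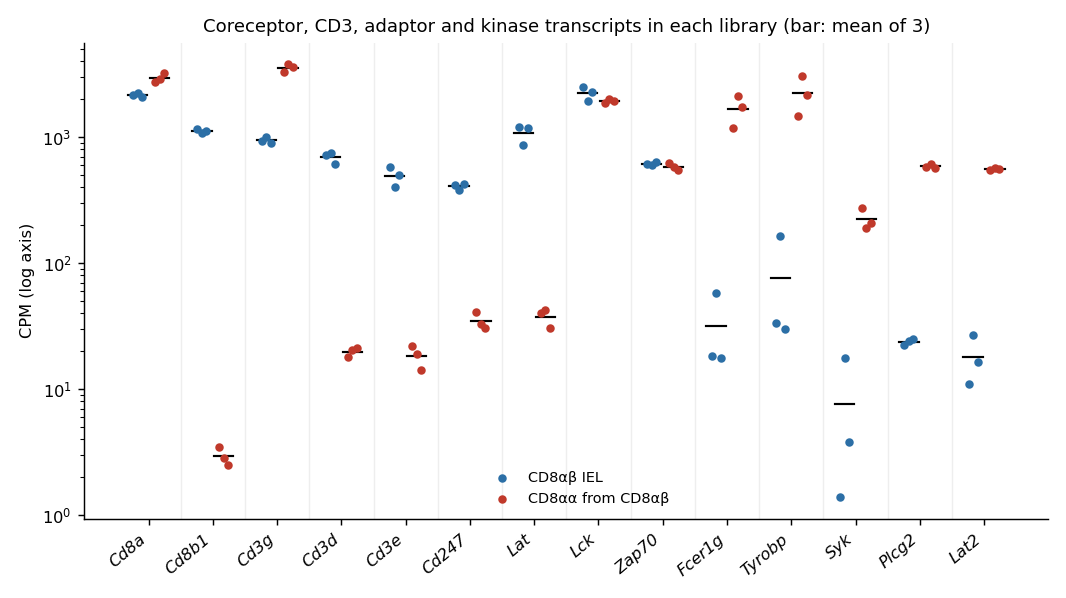
CPM on a log axis of 14 coreceptor, CD3, adaptor and kinase genes in the 3 CD8αβ IEL libraries (blue) and the 3 CD8αα from CD8αβ libraries (red), with bars at the mean of 3. Cd3d, Cd3e, Cd247, Lat and Cd8b1 are lower in every red point, Cd3g, Fcer1g, Tyrobp, Syk, Plcg2 and Lat2 are higher in every red point, and Zap70 overlaps.

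Of the signalling chains of Fc and natural killer (NK) cell receptors, Fcer1g, Tyrobp and Fcgr3 rose. Fcer1g (ENSMUSG00000058715, chromosome 1, 171229572 to 171234365), the Fc receptor γ chain, was at 18.4, 58.3 and 17.8 CPM in CD8αβ IEL and 1185, 2117 and 1745 CPM in the CD8αα group (log2 fold change 5.72 ± 0.53 SE, edgeR adjusted p = 2.57e-06). Tyrobp (ENSMUSG00000030579, chromosome 7, 30413788 to 30417577), which encodes DAP12, was at 33.7, 165 and 30.1 CPM in CD8αβ IEL against 1467, 3034 and 2155 CPM in CD8αα (4.85 ± 0.61, edgeR adjusted p = 4.26e-05). The lowest CD8αα library was above the highest CD8αβ IEL library in both genes, and CD8αβ IEL replicate 2 was the highest of its group in both. Fcgr3, the low-affinity Fc receptor for IgG of NK and myeloid cells, was at 6.72 ± 1.93 CPM in CD8αβ IEL and 340.3 ± 19.2 CPM in CD8αα. Hcst, which encodes DAP10, the partner of NKG2D, fell from 87.8 to 28.5 CPM. Of 7 tested chains 3 rose, 1 fell and 3 were not called, and without CD8αβ IEL replicate 1, 3 rose and 2 fell. The median of the list was −1.52, and −1.01 with CD8αα replicate 2 alone. This median changed sign between settings. It was 4.85 in a fit of only the 6 libraries (5 tested) and 1.60 with genes that have a pseudogene by sequence left out (6 tested). Fcgr4, Fcer1a, Ms4a2 and Trem2 had 0 reads in all 6 libraries.

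Some kinases and adaptors changed and others were not called. Lat (ENSMUSG00000030742, chromosome 7, 126363832 to 126369543), the scaffold that ZAP-70 phosphorylates, was at 1200.1, 868 and 1184 CPM in CD8αβ IEL and 40.1, 42.4 and 30.4 CPM in the CD8αα group (log2 fold change −4.85 ± 0.24 SE, edgeR adjusted p = 1.04e-08). Themis (ENSMUSG00000049109, chromosome 10, 28668360 to 28883818), which tunes T cell receptor signals and for which the donors were wild type, was at 243, 176 and 242 CPM in CD8αβ IEL against 12.2, 7.65 and 8.27 CPM in CD8αα (−4.54 ± 0.22, edgeR adjusted p = 1.04e-08). Lat2, the relative of LAT used by mast cells, B cells and NK cells, was at 10.9, 27 and 16.5 CPM in CD8αβ IEL against 547, 565 and 557 CPM in CD8αα (4.93 ± 0.35, edgeR adjusted p = 2.12e-07). At each of the 3 genes the groups were far apart. Lck, which phosphorylates the CD3 chains, was at 2476, 1936 and 2277 CPM in CD8αβ IEL against 1873, 2006 and 1939 CPM in CD8αα and was not called (−0.20 ± 0.11, edgeR adjusted p = 0.207). Zap70, the kinase recruited to them, was at 607, 601 and 633 CPM in CD8αβ IEL against 619, 584 and 545 CPM in CD8αα (−0.08 ± 0.15, edgeR adjusted p = 0.754), with overlapping groups. Syk (ENSMUSG00000021457, chromosome 13, 52583173 to 52648792), the counterpart of ZAP-70 downstream of Fc receptor chains, was at 1.39, 17.6 and 3.78 CPM in CD8αβ IEL against 273, 189 and 208 CPM in CD8αα (4.81 ± 0.64, edgeR adjusted p = 6.3e-05). Plcg2, the phospholipase of that route, was at 22.4, 24.1 and 25.2 CPM in CD8αβ IEL against 579.7, 607 and 569 CPM in CD8αα (4.61 ± 0.24, edgeR adjusted p = 1.31e-08). Both were higher in every CD8αα library.

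Of 14 tested genes of innate-type proximal signalling 9 rose and 0 fell (median 2.36). In this list 9 rose and 0 fell without CD8αβ IEL replicate 1, and 7 rose and 0 fell with CD8αα replicate 2 alone. Clnk, an adaptor of the SLP-76 family, rose from 1.3 to 164 CPM, Sh2d1b1 and Sh2d1b2, adaptors of SLAM receptors in NK cells, from 2.83 to 145 CPM and from 0.0462 to 10.3 CPM, and the SRC family kinase gene Fgr from 96.7 to 417 CPM. Of 34 genes of T cell receptor proximal signalling, coreceptors included, 16 fell and 9 rose (median −0.25). In this list 9 rose and 15 fell without CD8αβ IEL replicate 1, and 7 rose and 12 fell with CD8αα replicate 2 alone. Txk, a TEC family kinase, was among those that rose, at 96.7 ± 6.11 CPM in CD8αβ IEL and 624 ± 39 CPM in CD8αα, and so was Ptpn6, the phosphatase SHP-1, at 493 ± 98.5 CPM in CD8αβ IEL and 933 ± 24.4 CPM in CD8αα.

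NK receptor genes moved in both directions. Klrb1c, which encodes the NK1.1 antigen, was at 9.42, 7.07 and 7.57 CPM in CD8αβ IEL against 338, 318 and 341 CPM in CD8αα. Klrb1a, of the same NKR-P1 family, was at 0.693, 2.74 and 2.63 CPM in CD8αβ IEL against 232, 285 and 272 CPM in CD8αα (7.0 ± 0.35, edgeR adjusted p = 1.18e-08). Klrb1b, the inhibitory NKR-P1 receptor, had 0 reads in CD8αβ IEL and 6.35, 9.24 and 11.5 CPM in CD8αα, at least 67.1-fold higher. The CD8αα libraries were higher throughout at these 3. Klrc1, which encodes NKG2A, was at 219, 347 and 153 CPM in CD8αβ IEL against 2.34, 4.57 and 4.59 CPM in CD8αα (−5.98 ± 0.38, edgeR adjusted p = 8.34e-08) and thus lower in every CD8αα library. Klrc2, the activating NKG2C, fell as well (−5.57 ± 0.60, edgeR adjusted p = 1.06e-05), and so did Klrk1, which encodes NKG2D, from 97.5 ± 57.2 to 3.94 ± 1.82 CPM. Klra17 and Klrg1 were the other 2 that fell. Klrd1, the CD94 partner of NKG2 chains, did not pass (0.54 ± 0.38, edgeR adjusted p = 0.319). Ncr1, the NKp46 receptor that marks NK cells and group 1 innate lymphoid cells, had 0 reads in CD8αβ IEL and 0.56, 1.59 and 1.03 CPM in CD8αα (at least 7.9-fold higher, edgeR adjusted p = 0.0284). Its call ended without CD8αα replicate 2 (0.0634), without CD8αα replicate 3 (0.0513), with CD8αα replicate 2 alone (0.072), without CD8αβ IEL replicate 1 (0.0606), without CD8αβ IEL replicate 2 (0.0656) and without CD8αβ IEL replicate 3 (0.0605), with adjusted p in brackets.

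Of 21 tested NK receptors 12 rose and 5 fell. Their median was 3.79, or 2.24 with genes of few reads at their bound, and the counts were 10 rose and 7 fell without CD8αβ IEL replicate 1, and 9 rose and 4 fell with CD8αα replicate 2 alone. Klra5, of the Ly49 family, was at 2.41 ± 1.96 CPM in CD8αβ IEL and 176 ± 36.5 CPM in CD8αα, but Ly49 genes share sequence and their counts are uncertain. Among 20 markers of NK and group 1 innate lymphoid cells, 12 rose and 5 fell (11 rose and 6 fell without CD8αβ IEL replicate 1, and 9 rose and 4 fell with CD8αα replicate 2 alone), and their summed level was 7232 to 14791 CPM in CD8αβ IEL and 57262 to 66502 CPM in CD8αα, a sum made mostly of Gzma. Eomes, the regulator of conventional NK cells, moved against that list, from 56.8, 54.5 and 59.9 CPM to 0.747, 0 and 0 CPM (−7.63 ± 0.74, edgeR adjusted p = 3.56e-06). Il18r1, a chain of the interleukin 18 receptor of NK and T cells, also fell, from 46, 18.1 and 23.2 CPM to 0.28, 0.106 and 0 CPM (−7.56 ± 0.62, edgeR adjusted p = 3e-06). Of 15 markers of group 2 and group 3 innate lymphoid cells 9 fell and 0 rose (0 rose and 9 fell without CD8αβ IEL replicate 1, and 0 rose and 5 fell with CD8αα replicate 2 alone). Whether host innate lymphocytes contributed to the CD8αα libraries was not tested.

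Of the cytotoxic granule genes that rose, Gzma and Gzmb were the most abundant. Gzma (ENSMUSG00000023132, chromosome 13, 113093825 to 113100979), which encodes granzyme A, was at 3836, 10867 and 5059 CPM in CD8αβ IEL and 40292, 46837 and 45997 CPM in the CD8αα group (log2 fold change 2.75 ± 0.39 SE, edgeR adjusted p = 0.000102). Gzmb (ENSMUSG00000015437, chromosome 14, 56258856 to 56262260), granzyme B, was at 1747, 3707 and 2955 CPM in CD8αβ IEL against 14031, 15496 and 18353 CPM in CD8αα (2.51 ± 0.33, edgeR adjusted p = 5.88e-05). Prf1, the pore-forming perforin, was at 193, 163 and 216 CPM in CD8αβ IEL against 448, 480.3 and 458 CPM in CD8αα (1.28 ± 0.21, edgeR adjusted p = 0.000449). No CD8αα library overlapped CD8αβ IEL at these genes. Gzmk, granzyme K of memory CD8 T cells, fell instead, at 414, 557 and 448 CPM in CD8αβ IEL against 19.4, 14.9 and 25.8 CPM in CD8αα (−4.56 ± 0.24, edgeR adjusted p = 2.02e-08). Gzmc, granzyme C, rose from 1.49 to 74.1 CPM, Cst7, an inhibitor of cathepsins, from 241 to 718 CPM and Ctsc, the cathepsin that activates granzymes, from 343 to 767 CPM. Granzyme genes are related in sequence, so reads between them are uncertain. Of 19 granule genes 10 rose and 3 fell, the latter being Gzmk, Gzmm and Rab27a (median 0.41). In this list 9 rose and 2 fell without CD8αβ IEL replicate 1, and 6 rose and 2 fell with CD8αα replicate 2 alone.

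Several cytokine genes were lower, and 12 of 23 tested were not called. Ifng, the interferon of type 1 responses, was at 385, 352 and 324 CPM in CD8αβ IEL and 63.4, 81.4 and 80.3 CPM in the CD8αα group (log2 fold change −2.24 ± 0.28 SE, edgeR adjusted p = 4.06e-05). Xcl1, a chemokine for cross-presenting dendritic cells, was at 71.3, 166 and 58.9 CPM in CD8αβ IEL against 9.25, 20.2 and 20.8 CPM in CD8αα (−2.57 ± 0.42, edgeR adjusted p = 0.000384), and Ccl1 fell from 15.5 to 0.0708 CPM. At Ifng and Xcl1 every CD8αα library was below every CD8αβ IEL library. Ccl4 was at 660.5 and 527 CPM and was not called (−0.33 ± 0.22, edgeR adjusted p = 0.287). Ccl5, the chemokine of effector T and NK cells, rose, at 3854, 6327 and 2677 CPM in CD8αβ IEL against 5343, 11247 and 7335 CPM in CD8αα (0.90 ± 0.28, edgeR adjusted p = 0.0271), but its call ended without CD8αα replicate 2 (0.144), without CD8αβ IEL replicate 1 (0.0772) and without CD8αβ IEL replicate 3 (0.131). Il4 had 0 reads in CD8αβ IEL and 2.05, 6.27 and 3.9 CPM in CD8αα, at least 30.3-fold higher. Among the 23 cytokines 9 fell and 2 rose (median −0.99). In this list 1 rose and 10 fell without CD8αβ IEL replicate 1, and 2 rose and 3 fell with CD8αα replicate 2 alone.

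Most costimulatory and inhibitory receptors fell. Icos, a costimulator of the CD28 family, was at 213, 131 and 229.7 CPM in CD8αβ IEL against 0.841, 0.744 and 0.459 CPM in CD8αα. Ctla4, the inhibitory counterpart of CD28, was at 345, 290.0 and 339.9 CPM in CD8αβ IEL against 20.4, 22.9 and 25.3 CPM in CD8αα. Lag3, which binds class II molecules and inhibits T cells, was higher instead, at 252, 550.4 and 374 CPM in CD8αβ IEL against 1308, 1410.1 and 1503 CPM in CD8αα (1.84 ± 0.28, edgeR adjusted p = 0.000226). Groups did not overlap at these genes. Cd160, a receptor of cytotoxic IEL, fell (−1.58 ± 0.17, edgeR adjusted p = 8.36e-06), Cd244, the 2B4 receptor of NK cells, rose from 158 to 1224 CPM, and Tigit was at 199 and 229.7 CPM and was not called (0.21 ± 0.17, edgeR adjusted p = 0.389). Of 23 receptors 17 fell and 5 rose, with Cd96, Cd200r1 and Cd200r4 beside Lag3 and Cd244 (median −1.99). In this list 5 rose and 17 fell without CD8αβ IEL replicate 1, and 5 rose and 16 fell with CD8αα replicate 2 alone.

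Members of the tumour necrosis factor (TNF) superfamily moved in both directions. Among ligands, Tnf fell from 137 ± 16 to 10.3 ± 0.896 CPM, and Ltb, the membrane anchor of lymphotoxin, from 382 ± 89.5 to 25.4 ± 1.78 CPM. Tnfsf11, which encodes RANKL, had 0 reads in CD8αα and was at least 140.1-fold lower, and Tnfsf4, the OX40 ligand, had 1 read, a ratio of 481 with a 95% counting interval of 85.8 to 19054. Fasl, the death ligand of cytotoxic cells, was at 393, 328 and 354 CPM in CD8αβ IEL against 586, 575 and 504 CPM in CD8αα (0.63 ± 0.13, edgeR adjusted p = 0.00209), higher in the CD8αα group, and Tnfsf8, the CD30 ligand, rose from 10.1 ± 3.65 to 127 ± 17.1 CPM. Among receptors, Tnfrsf9, which encodes 4-1BB, rose (1.28 ± 0.35, edgeR adjusted p = 0.0135) and Fas, the receptor of the death ligand, fell from 39.7 to 0.426 CPM. The call of Tnfrsf9 ended with CD8αα replicate 2 alone (0.0778) and without CD8αβ IEL replicate 3 (0.0672). Of 26 members 13 fell and 8 rose. In this list 9 rose and 13 fell without CD8αβ IEL replicate 1, and 4 rose and 13 fell with CD8αα replicate 2 alone.

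Transcription factors of T cell identity were mostly lower. Tcf7 (ENSMUSG00000000782, chromosome 11, 52252371 to 52283014), which encodes TCF-1, was at 182, 83.2 and 162 CPM in CD8αβ IEL and 3.27, 4.25 and 3.67 CPM in the CD8αα group (log2 fold change −5.25 ± 0.51 SE, edgeR adjusted p = 3.75e-06). Bcl11b (ENSMUSG00000048251, chromosome 12, 107910403 to 108003602), which commits progenitors to the T lineage, was at 255, 183 and 215 CPM in CD8αβ IEL against 17.7, 19.1 and 15.2 CPM in CD8αα (−3.65 ± 0.30, edgeR adjusted p = 9.33e-07). Both were lower in every CD8αα library. Lef1, the relative of TCF-1, fell from 47 to 1.53 CPM, and Tox2 and Bach2, of activated and memory T cells, from 26.9 to 0.0665 CPM and from 3.87 to 0.0694 CPM. Gata3, Tox and Runx1, also T cell regulators, were not called, with Gata3 at −0.17 ± 0.16, edgeR adjusted p = 0.471 and Tox at 0.06 ± 0.18, edgeR adjusted p = 0.852. Of 22 factors 12 fell and 1 rose, which was Zbtb7b, the regulator of CD4 fate, at 3.6, 3.8 and 7.9 CPM in CD8αβ IEL against 14.6, 14.4 and 13.7 CPM in CD8αα (1.5 ± 0.31, edgeR adjusted p = 0.00199). The counts were 1 rose and 12 fell without CD8αβ IEL replicate 1, and 1 rose and 9 fell with CD8αα replicate 2 alone.

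Regulators of innate and effector lymphocytes had no common direction. Zbtb16 (ENSMUSG00000066687, chromosome 9, 48654311 to 48835945), which encodes PLZF of innate-like T cells and innate lymphoid progenitors, was at 0, 0.106 and 1.15 CPM in CD8αβ IEL against 22.1, 25.3 and 21.8 CPM in CD8αα (5.92 ± 0.77, edgeR adjusted p = 5.61e-05). Runx3, which maintains CD8 and cytotoxic genes, was at 337, 370.0 and 325 CPM in CD8αβ IEL against 565, 639 and 433 CPM in CD8αα (0.67 ± 0.14, edgeR adjusted p = 0.00293). Ikzf2, which encodes Helios, was at 17, 40.7 and 40.8 CPM in CD8αβ IEL against 98, 79.1 and 121 CPM in CD8αα (1.60 ± 0.30, edgeR adjusted p = 0.00105). Each was higher in all 3 CD8αα libraries, although the call of Ikzf2 ended with CD8αα replicate 2 alone (0.0526). Nfil3, needed for NK cell development, rose from 111 to 245 CPM and Rora fell from 277 to 5.95 CPM. Tbx21, the T-bet regulator of cytotoxic cells, and Id2 were not called (−0.27 ± 0.13, edgeR adjusted p = 0.122, and −0.36 ± 0.14, edgeR adjusted p = 0.0611). Gm13060, the listed symbol for Zfp683 (Hobit of tissue-resident cells), had 0 reads in CD8αα and was at least 33.3-fold lower. Of 24 factors 5 rose and 9 fell (6 rose and 9 fell without CD8αβ IEL replicate 1, and 4 rose and 5 fell with CD8αα replicate 2 alone), and Tcf4 was the fifth that rose, from 20.2 to 105 CPM.

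Some cytokine receptors rose, near the share of all tested genes, and more fell. Il2rb (ENSMUSG00000068227, chromosome 15, 78480553 to 78495066), the β chain shared by the interleukin 2 and interleukin 15 receptors, was at 732, 888 and 761 CPM in CD8αβ IEL and 3935, 3775 and 3930.2 CPM in the CD8αα group (log2 fold change 2.29 ± 0.11 SE, edgeR adjusted p = 1.04e-08). Il7r, the interleukin 7 receptor of naive and memory T cells, was at 80.6, 45.7 and 68.1 CPM in CD8αβ IEL against 2.71, 2.76 and 3.33 CPM in CD8αα (−4.46 ± 0.35, edgeR adjusted p = 5.16e-07). Il2ra, the high-affinity interleukin 2 receptor chain of activated T cells, fell from 7.46 to 0.106 CPM, and Il12rb2, a chain of the interleukin 12 receptor, rose from 24.2 ± 6.81 to 376 ± 20.5 CPM. The groups were apart at all 4. Il21r was not called (0.24 ± 0.16, edgeR adjusted p = 0.293). Il18rap, the second chain of the interleukin 18 receptor, fell from 93 to 0.65 CPM. Of 32 receptors 12 fell and 5 rose, with Il4ra, Il1r2 and Tgfbr1 beside Il2rb and Il12rb2. Thus 37.5% fell and 15.6% rose, against 15.1% and 16.1% of all tested genes. In this list 5 rose and 13 fell without CD8αβ IEL replicate 1, and 5 rose and 9 fell with CD8αα replicate 2 alone. Bcl2, the survival factor, rose, at 169.6, 232 and 167 CPM in CD8αβ IEL against 922, 873 and 917 CPM in CD8αα (2.25 ± 0.18, edgeR adjusted p = 7.85e-07), together with its relative Bcl2l1, from 117 to 218 CPM, and the death-promoting Bcl2l11 and Bmf (0.89 ± 0.20, edgeR adjusted p = 0.0035, and 3.35 ± 0.36, edgeR adjusted p = 1.11e-05). Of 33 survival and death genes 8 rose and 8 fell. In this list 7 rose and 7 fell without CD8αβ IEL replicate 1, and 5 rose and 5 fell with CD8αα replicate 2 alone.

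Homing and exit receptors were mostly lower. Itga4, the α4 integrin chain for entry into gut, was at 279, 194 and 274 CPM in CD8αβ IEL and 13.4, 10.2 and 7.58 CPM in the CD8αα group (log2 fold change −4.58 ± 0.23 SE, edgeR adjusted p = 1.18e-08). Itgal, the α chain of LFA-1, was at 1037, 387 and 873 CPM in CD8αβ IEL against 5.79, 11.6 and 11.3 CPM in CD8αα (−6.33 ± 0.39, edgeR adjusted p = 7.15e-08). Cd44, the hyaluronan receptor of activated T cells, was at 246, 154 and 159 CPM in CD8αβ IEL against 6.07, 10.8 and 6.54 CPM in CD8αα (−4.58 ± 0.31, edgeR adjusted p = 1.44e-07). All 3 were lower in every CD8αα library. Ccr9, the receptor for the small intestinal chemokine CCL25, was at 245, 369 and 289 CPM in CD8αβ IEL against 118, 152 and 111 CPM in CD8αα (−1.24 ± 0.18, edgeR adjusted p = 0.000157). Cxcr3, a receptor for interferon-induced chemokines, was at 351, 244 and 303 CPM in CD8αβ IEL against 71.7, 102 and 82.1 CPM in CD8αα (−1.81 ± 0.18, edgeR adjusted p = 4.55e-06). Cx3cr1, of effector cells, fell from 24.8 to 0.284 CPM and Gpr183, a receptor for oxysterols, from 163 to 9.86 CPM. Of 30 chemokine, homing and exit receptors 21 fell and 6 rose (median −2.14). Thus 70% fell and 20% rose, against 15.1% and 16.1% of all tested genes. In this list 7 rose and 21 fell without CD8αβ IEL replicate 1, and 4 rose and 12 fell with CD8αα replicate 2 alone.

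Several molecules of contact with the epithelium were higher. Itgae (ENSMUSG00000005947, chromosome 11, 73090583 to 73147446), the αE chain that binds E-cadherin, was at 2108, 1485 and 1654 CPM in CD8αβ IEL and 3933, 3997 and 3963 CPM in the CD8αα group (log2 fold change 1.18 ± 0.13 SE, edgeR adjusted p = 1.33e-05). Itga1, the collagen-binding α1 chain, was at 235, 129 and 190.0 CPM in CD8αβ IEL against 564, 382 and 459 CPM in CD8αα (1.34 ± 0.24, edgeR adjusted p = 0.000666). Epcam, an adhesion molecule of epithelium that is also described on IEL, was at 13.9, 51.9 and 36.7 CPM in CD8αβ IEL against 183, 232 and 205 CPM in CD8αα (2.59 ± 0.40, edgeR adjusted p = 0.000228). Cdh1, which encodes E-cadherin, was at 109.7, 74.1 and 72.7 CPM in CD8αβ IEL against 294, 247 and 290.0 CPM in CD8αα. At these genes each CD8αα library was above all of CD8αβ IEL. Itgam and Itgax, the αM and αX chains of myeloid and NK cells, rose from 2.66 to 194 CPM and from 147 to 411 CPM. Cd69, a marker of recent activation and of tissue residence, was at 1890.0, 1435 and 1813 CPM in CD8αβ IEL against 1067, 1263 and 1481 CPM in CD8αα (−0.43 ± 0.15, edgeR adjusted p = 0.0442), and its call ended without CD8αα replicate 1 (0.178), without CD8αα replicate 2 (0.101), with CD8αα replicate 2 alone (0.221), without CD8αβ IEL replicate 1 (0.135) and without CD8αβ IEL replicate 3 (0.0731). Of 29 integrin and adhesion genes 11 rose and 10 fell. In this list 9 rose and 8 fell without CD8αβ IEL replicate 1, and 8 rose and 7 fell with CD8αα replicate 2 alone.

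Mitosis genes were lower almost throughout, and most replication genes were lower. Of 51 mitosis genes 50 fell and 0 rose (median −2.47; 0 rose and 50 fell without CD8αβ IEL replicate 1, and 0 rose and 42 fell with CD8αα replicate 2 alone), and Kif20b, a kinesin, was the exception at 39.4 and 26.8 CPM (−0.56 ± 0.20, edgeR adjusted p = 0.0503). Mki67, the Ki-67 proliferation antigen, was at 223, 213 and 222 CPM in CD8αβ IEL and 48.5, 49.3 and 38.5 CPM in the CD8αα group (log2 fold change −2.27 ± 0.16 SE, edgeR adjusted p = 2.41e-07). Top2a, the topoisomerase of chromosome segregation, was at 391, 309 and 442 CPM in CD8αβ IEL against 95.9, 67.8 and 65.7 CPM in CD8αα (−2.31 ± 0.21, edgeR adjusted p = 1.84e-06). Cdk1, the kinase that drives mitosis, was at 74.3, 123 and 103 CPM in CD8αβ IEL against 16.9, 17.6 and 19.7 CPM in CD8αα (−2.47 ± 0.23, edgeR adjusted p = 2.88e-06). Ube2c, which marks mitotic cyclins for destruction, was at 86.9, 145 and 135 CPM in CD8αβ IEL against 12, 8.5 and 7.92 CPM in CD8αα (−3.69 ± 0.33, edgeR adjusted p = 1.71e-06), and Cdc25b, the phosphatase that activates CDK1, fell as well (−3.95 ± 0.22, edgeR adjusted p = 2.64e-08). No CD8αα library reached the lowest CD8αβ IEL library at any of these. Of 46 replication genes 37 fell and 2 rose (median −1.27). In this list 2 rose and 38 fell without CD8αβ IEL replicate 1, and 1 rose and 25 fell with CD8αα replicate 2 alone. Mcm5, a subunit of the replicative helicase, was at 255, 404 and 366 CPM in CD8αβ IEL against 109, 130.2 and 116 CPM in CD8αα (−1.53 ± 0.17, edgeR adjusted p = 1.65e-05), Pcna, the sliding clamp, at 267, 308 and 276 CPM in CD8αβ IEL against 106, 110.4 and 117 CPM in CD8αα (−1.35 ± 0.14, edgeR adjusted p = 8.06e-06). Rrm2, of ribonucleotide reductase, was at 272, 386 and 309 CPM in CD8αβ IEL against 51, 74.9 and 47.2 CPM in CD8αα (−2.48 ± 0.22, edgeR adjusted p = 1.63e-06). Rfc2 and Rpa1, which load the clamp and coat single-stranded DNA, were the 2 that rose, from 149 to 252 CPM and from 412 to 639.8 CPM. Of 25 tested replication-dependent histone genes 5 fell and 2 rose, with the linker histone Hist1h1b at 9.02 and 0.744 CPM among those that fell, beside Hist1h2ab, Hist1h2ae, Hist1h2ao and Hist1h4i, and Hist1h1c and Hist3h2a as those that rose. In this list 20% fell and 8% rose, against 15.1% and 16.1% of all tested genes. Without CD8αα replicate 1 or CD8αβ IEL replicate 2, 3 fell. Of the 25 tested, 18 were not called. The histone median was −0.77, and −1.53 over 34 tested genes with CD8αα replicate 2 alone. The call of Hist3h2a ended without CD8αα replicate 2 (0.175), without CD8αα replicate 3 (0.0666), without CD8αβ IEL replicate 1 (0.0925) and without CD8αβ IEL replicate 3 (0.151). Histone genes are near copies of each other, so these counts are uncertain.

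Because these genes moved together, their promoters are shown. Many mitotic promoters hold a cell cycle homology region (CHR, letters TTTGAA) near the start and CCAAT boxes upstream, and replication promoters hold E2F sites (letters TTTNGCGC). Windows of 300 bases (250 before and 50 after each start) from the RefSeq promoters on GRCm38.p6, the assembly of mm10, were searched on both strands. They covered 43 of the 51 mitosis genes and 37 of the 46 replication genes, some with several starts. Windows printed here end 30 bases after the start and run 5′ to 3′ along the gene, with CHR and CCAAT letters in capitals for Ube2c, Top2a and Cdk1 and E2F letters in capitals for Mcm5. Ube2c lies at chr2:164769679-164769958 (+), Top2a at chr11:99024160-99024439 (−), Cdk1 at chr10:69352883-69353162 (−) and Mcm5 at chr8:75109259-75109538 (+).
Ube2c: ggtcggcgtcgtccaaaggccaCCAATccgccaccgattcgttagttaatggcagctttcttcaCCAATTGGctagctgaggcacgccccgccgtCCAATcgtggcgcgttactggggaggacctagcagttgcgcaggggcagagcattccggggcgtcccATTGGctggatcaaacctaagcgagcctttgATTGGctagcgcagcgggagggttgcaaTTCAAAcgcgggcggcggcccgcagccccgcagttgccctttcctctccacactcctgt
Top2a: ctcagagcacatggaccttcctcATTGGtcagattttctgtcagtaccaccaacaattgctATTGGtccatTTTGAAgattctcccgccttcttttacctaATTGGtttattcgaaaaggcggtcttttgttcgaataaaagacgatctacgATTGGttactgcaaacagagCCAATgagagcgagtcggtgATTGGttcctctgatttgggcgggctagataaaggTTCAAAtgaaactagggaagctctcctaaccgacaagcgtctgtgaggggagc
Cdk1: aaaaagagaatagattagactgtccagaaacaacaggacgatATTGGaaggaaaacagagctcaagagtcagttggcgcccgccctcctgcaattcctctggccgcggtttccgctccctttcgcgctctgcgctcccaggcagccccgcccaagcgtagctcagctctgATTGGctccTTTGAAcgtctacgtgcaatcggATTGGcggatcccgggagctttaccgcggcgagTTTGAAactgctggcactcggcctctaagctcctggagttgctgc
Mcm5: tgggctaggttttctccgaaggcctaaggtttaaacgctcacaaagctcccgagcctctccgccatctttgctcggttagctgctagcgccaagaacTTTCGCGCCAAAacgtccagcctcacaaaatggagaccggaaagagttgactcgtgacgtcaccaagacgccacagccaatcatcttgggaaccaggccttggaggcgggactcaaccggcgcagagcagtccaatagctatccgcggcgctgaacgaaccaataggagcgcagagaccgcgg

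The CHR letters were found in 31 of 45 windows of mitosis genes (68.9%), against 15.2% of replication windows and 17.9% of all 32851 windows of the same length. In windows of the genes tested here the share was 12.2%. CCAAT letters were in 71.1% of mitosis, 58.7% of replication and 37.4% of all windows, and 37.8% of those of tested genes. The E2F letters were in 13 of 46 replication windows (28.3%), against 8.89% of mitosis and 1.38% of all windows, and 2.5% of those of tested genes. In Mcm5 the 2 matches overlap each other. Of 21 windows of sterol genes, described below, 71.4% held CCAAT and 1 of 21 held TCACNCCAC, a sterol response element that 1.24% of all windows and 1.14% of those of tested genes hold. These are matches of letters and say nothing of binding.

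The number of ribosomal genes that fell moved with single libraries. Of 82 ribosomal protein genes 57 fell and 1 rose, which was Rps4y2, a copy with low counts (median −1.05). Without CD8αβ IEL replicate 1 there were 27 and 0, with CD8αα replicate 2 alone 3 and 0, without CD8αα replicate 1 30 and 1, and without CD8αβ IEL replicate 3 there were 73 and 0. Rps6, of the small subunit, was at 1168, 25.3 and 26 CPM in CD8αβ IEL against 15.3, 18 and 14.7 CPM in CD8αα (−4.67 ± 1.14, edgeR adjusted p = 0.0065), and Rps13 at 311, 21.4 and 14.8 CPM in CD8αβ IEL against 6.16, 13.4 and 8.61 CPM in CD8αα (−3.63 ± 0.88, edgeR adjusted p = 0.00645). Replicate 1 was far above the other CD8αβ IEL libraries at both, and both calls ended without it (−0.68, adjusted p = 0.0717, and −0.95, adjusted p = 0.0693). The same held for Atp5g2, a subunit of the ATP synthase ring, at 90.2, 2.64 and 1.48 CPM in CD8αβ IEL against 0.747, 1.06 and 0.689 CPM in CD8αα (−1.30, adjusted p = 0.3 without it), and for Cycs, cytochrome c, at 194, 12.7 and 16.1 CPM in CD8αβ IEL against 5.88, 10.5 and 9.3 CPM in CD8αα (−0.74, adjusted p = 0.16). Gapdh, which also has many pseudogenes, kept its call, at 219, 73.9 and 78.3 CPM in CD8αβ IEL against 26.8, 19.4 and 33.5 CPM in CD8αα (−2.22 ± 0.35, edgeR adjusted p = 0.000296; −1.51, adjusted p = 0.000132 without it). Of 64 translation factors 16 fell and 3 rose (3 rose and 13 fell without CD8αβ IEL replicate 1, and 3 rose and 2 fell with CD8αα replicate 2 alone), with Eif2c4, Eif4e3 and Eef2k as those that rose and Eef2k, the kinase that slows elongation, up from 5.21 ± 3.36 to 252 ± 25.5 CPM. Of 76 mitochondrial ribosomal proteins 9 fell (11.8%) and 0 rose, and of 80 nuclear genes of oxidative phosphorylation 11 fell (13.8%) and 1 rose (Atp5s). Both shares were under the 15.1% of all tested genes that were called lower. Of 42 proteasome genes 14 fell (33.3%) and 0 rose. With CD8αα replicate 2 alone 0, 1 and 3 fell. Single libraries moved these counts too. Mitochondrial ribosomal proteins that fell were 2 without CD8αα replicate 1, 5 without CD8αα replicate 3 and 4 without CD8αβ IEL replicate 2. Oxidative phosphorylation genes that fell were 7 without CD8αα replicate 1, 21 without replicate 2 and 7 without replicate 3, and 19 without CD8αβ IEL replicate 3. Proteasome genes that fell were 8 without CD8αα replicate 3.

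Many sterol genes rose, and 12 of 24 glycolysis genes fell. Hmgcs1, an early enzyme of cholesterol synthesis, was at 257, 333 and 376 CPM in CD8αβ IEL and 961, 798 and 1208 CPM in the CD8αα group (log2 fold change 1.62 ± 0.17 SE, edgeR adjusted p = 7.02e-06). Sc4mol, the listed symbol for the sterol oxidase Msmo1, was at 139, 189 and 216 CPM in CD8αβ IEL against 432, 467 and 645 CPM in CD8αα (1.51 ± 0.19, edgeR adjusted p = 4.99e-05). Every CD8αα library was higher at both genes. Sqle, squalene epoxidase, rose (0.81 ± 0.18, edgeR adjusted p = 0.00306), and Dhcr7, of the last step of synthesis, from 124 to 293 CPM. Of 25 sterol genes 16 rose and 0 fell (median 0.77). In this list 14 rose and 0 fell without CD8αβ IEL replicate 1, and 7 rose and 0 fell with CD8αα replicate 2 alone. Of 26 fatty acid genes 9 rose and 0 fell (10 rose and 0 fell without CD8αβ IEL replicate 1, and 5 rose and 0 fell with CD8αα replicate 2 alone), among them Fasn, fatty acid synthase (1.14 ± 0.22, edgeR adjusted p = 0.0014), the desaturase Scd2 (1.29 ± 0.24, edgeR adjusted p = 0.00103) and Acsl1, which activates long-chain fatty acids, from 6.41 ± 2.69 to 75.8 ± 8.27 CPM. In glycolysis Ldha, lactate dehydrogenase, was at 1147, 1429 and 1303 CPM in CD8αβ IEL against 796, 897 and 768 CPM in CD8αα (−0.66 ± 0.14, edgeR adjusted p = 0.00284), and Slc16a1, a lactate transporter, fell from 73.9 to 10.5 CPM. The glucose transporter gene Slc2a3 was not called (−0.27 ± 0.22, edgeR adjusted p = 0.383). The 2 glycolysis genes that rose were Slc16a3 and Pdk1, and 10 were not called (median −0.35). In this list 2 rose and 10 fell without CD8αβ IEL replicate 1, and 0 rose and 5 fell with CD8αα replicate 2 alone. Of 35 genes of amino acid supply 9 fell and 2 rose (Slc3a2 and Wars), with Slc7a5, a transporter of large neutral amino acids, at 11.6 and 0.738 CPM and Asns, asparagine synthetase, at 13.9 and 1.03 CPM. In this list 2 rose and 7 fell without CD8αβ IEL replicate 1, and 1 rose and 6 fell without CD8αα replicate 1. Its median was −0.22, and −0.23 over 36 tested genes with CD8αα replicate 2 alone.

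Genes induced by recent stimulation were divided. Nr4a1, which reports T cell receptor signals, was at 3247, 2328 and 2838 CPM in CD8αβ IEL and 985, 853 and 901 CPM in the CD8αα group (log2 fold change −1.62 ± 0.13 SE, edgeR adjusted p = 8.27e-07). Egr1, an immediate early factor, was at 281, 305 and 355 CPM in CD8αβ IEL against 151, 162 and 207 CPM in CD8αα (−0.86 ± 0.19, edgeR adjusted p = 0.00296). Dusp2, a phosphatase of MAP kinases, fell from 262 ± 65.4 to 9.33 ± 2.11 CPM. Rgs1, a brake on chemokine receptors in tissue lymphocytes, rose, at 2407, 1993 and 2202 CPM in CD8αβ IEL against 6221, 6260.2 and 6775 CPM in CD8αα (1.54 ± 0.13, edgeR adjusted p = 1.16e-06). Fos, which handling of cells also induces, was not called (−0.17 ± 0.22, edgeR adjusted p = 0.616). Of 34 immediate early genes 18 fell and 4 rose, with Rgs2, Fosl2 and Dusp6 beside Rgs1 (median −0.40). In this list 4 rose and 14 fell without CD8αβ IEL replicate 1, and 3 rose and 12 fell with CD8αα replicate 2 alone. Of 24 heat shock genes 2 fell (Hspd1 and Bag3) and 5 rose (Dnajb1, Dnajb4, Canx, Sdf2l1 and Hyou1), and 3 rose and 1 fell without CD8αβ IEL replicate 1, and 3 rose and 1 fell with CD8αα replicate 2 alone, with Hspa8 and Hsp90ab1, both abundant chaperones, not called (−0.48 ± 0.31, edgeR adjusted p = 0.263, and −0.35 ± 0.16, edgeR adjusted p = 0.13). With all libraries 20.8% of heat shock genes rose and 8.33% fell, against 16.1% and 15.1% of all tested genes. Without CD8αβ IEL replicate 2, 8 rose and 2 fell, and without CD8αβ IEL replicate 3, 2 rose and 5 fell. Without any 1 CD8αα library, 3 rose. The call of Dnajb1 ended without CD8αα replicate 2 (0.105), without CD8αα replicate 3 (0.066), without CD8αβ IEL replicate 1 (0.0842) and without CD8αβ IEL replicate 3 (0.117).

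Interferon-stimulated genes were lower in part, with a count that moved with single libraries. Of 50 members 22 fell and 1 rose, which was Irgm2 (median −0.88), against 27 and 0 without CD8αβ IEL replicate 1, 10 and 1 without CD8αβ IEL replicate 3, and 9 and 0 with CD8αα replicate 2 alone. Without CD8αα replicate 1, 10 fell, without CD8αα replicate 2, 12, and without CD8αα replicate 3, 32. In a fit of only the 6 libraries 8 fell. The call of Irgm2 ended without CD8αα replicate 2 (0.127), without CD8αα replicate 3 (0.156), with CD8αα replicate 2 alone (0.15), without CD8αβ IEL replicate 1 (0.172) and without CD8αβ IEL replicate 2 (0.126). Isg15, a ubiquitin-like protein, was at 122, 227 and 389.6 CPM in CD8αβ IEL against 32.4, 84.2 and 149.8 CPM in CD8αα (−1.47 ± 0.48, edgeR adjusted p = 0.0307), and its call ended without CD8αα replicate 1 (0.0874), without CD8αα replicate 2 (0.081), with CD8αα replicate 2 alone (0.09) and without CD8αβ IEL replicate 3 (0.132). CD8αβ IEL replicate 3 was the highest library at Isg15. The interferon-stimulated response element, searched on both strands, was in 13 of 41 windows of this list and in 0.271% of all windows, or 0.44% of those of tested genes.

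Among genes of class I presentation, 13 of 24 fell and 3 rose, which were Mr1, Cd1d1 and Tapbp. Thus 54.2% fell and 12.5% rose, against 15.1% and 16.1% of all tested genes. In this list 2 rose and 11 fell without CD8αβ IEL replicate 1, and 2 rose and 5 fell with CD8αα replicate 2 alone. H2-K1 and B2m, the class I heavy and light chains, were not called (−0.13 ± 0.12, edgeR adjusted p = 0.461, and 0.04 ± 0.15, edgeR adjusted p = 0.867), and reads of H2 genes are uncertain because these genes share sequence. Tap1, the peptide transporter, fell from 822 ± 136 to 353 ± 82.6 CPM and Nlrc5, the class I transactivator, fell (−1.32 ± 0.18, edgeR adjusted p = 6.95e-05), while Mr1, which presents vitamin B metabolites, rose (1.95 ± 0.27, edgeR adjusted p = 9.62e-05). Of 13 class II genes 8 fell and 2 rose, which were H2-DMa and Ciita (1 rose and 9 fell without CD8αβ IEL replicate 1, and 0 rose and 1 fell with CD8αα replicate 2 alone; 5 fell without CD8αβ IEL replicate 2), with Cd74, the invariant chain, at 176, 509 and 221 CPM in CD8αβ IEL against 74.8, 115 and 43.6 CPM in CD8αα (−1.96 ± 0.40, edgeR adjusted p = 0.00188).

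Markers of other cell types were checked by list. The summed level of 36 listed epithelial markers was 409.8 to 1297 CPM in CD8αβ IEL and 812 to 1592 CPM in CD8αα, and 5 of 29 tested rose (17.2%, against 16.1% of all tested genes). In this list 3 rose and 0 fell without CD8αβ IEL replicate 1, and 3 rose and 0 fell with CD8αα replicate 2 alone, and 3 rose without CD8αβ IEL replicate 3. The 5 were Epcam, Cdh1, Cdh17, Krt18 and Lgals4, but the call of Krt18 ended without CD8αα replicate 1 (0.0517), with CD8αα replicate 2 alone (0.147), without CD8αβ IEL replicate 1 (0.0521) and without CD8αβ IEL replicate 3 (0.083), and that of Lgals4 without CD8αα replicate 2 (0.128), without CD8αα replicate 3 (0.108), with CD8αα replicate 2 alone (0.0893), without CD8αβ IEL replicate 1 (0.128) and without CD8αβ IEL replicate 3 (0.178). Others did not pass, among them Krt8, a keratin, at 8.87, 46.9 and 22 CPM in CD8αβ IEL against 6.91, 24.5 and 13.7 CPM in CD8αα (−0.79 ± 0.61, edgeR adjusted p = 0.366). Fabp1, the enterocyte fatty acid binding protein, was at 14, 72.7 and 17.3 CPM in CD8αβ IEL against 3.55, 51.4 and 12.9 CPM in CD8αα (−0.63 ± 0.83, edgeR adjusted p = 0.623). Of 20 tested myeloid markers 8 fell and 2 rose, which were Itgam and Itgax. In this list 2 rose and 8 fell without CD8αβ IEL replicate 1, and 2 rose and 1 fell with CD8αα replicate 2 alone. Without CD8αα replicate 2 or 3, 3 fell, and without CD8αα replicate 1 or CD8αβ IEL replicate 2, 5. Lyz2, lysozyme M, was at 7.2, 12 and 5.92 CPM in CD8αβ IEL against 0.934, 1.49 and 0 CPM in CD8αα, S100a8, S100a9 and Ly6g had 0 reads in all 6 libraries, and the summed level was 483 to 918 and 775 to 938 CPM. Of 9 tested B cell markers Cd79b rose (2.32 ± 0.29, edgeR adjusted p = 3.7e-05) and Bank1 fell, while Ms4a1, Pax5 and Ebf1 had 0 reads in all 6. The summed B cell level was 36.5 to 189 and 91.7 to 112 CPM. Of 7 tested stromal and endothelial markers Pecam1, an adhesion molecule of endothelium and some leukocytes, was at 27.3, 28.9 and 19.6 CPM in CD8αβ IEL against 591, 593 and 748 CPM in CD8αα (4.67 ± 0.22, edgeR adjusted p = 1.04e-08), and Col1a2, a collagen chain, had 0 reads in CD8αβ IEL and 10.9, 13.9 and 8.84 CPM in CD8αα, at least 85.6-fold higher. Col3a1, Dcn, Lum, Pdgfra, Vwf and Lyve1 had 0 reads in all 6. The summed stromal and endothelial level was 24.8 to 41.4 and 606 to 769 CPM, in CD8αα almost all of it Pecam1. Of 3 tested mast cell markers Cpa3 rose (3.42 ± 1.01, edgeR adjusted p = 0.0198), a call that ended without CD8αα replicate 3 (0.0753), with CD8αα replicate 2 alone (0.191) and without CD8αβ IEL replicate 1 (0.0565), with Mcpt4, Tpsb2 and Cma1 at 0 reads and a summed level of 95.5 to 137 and 71.9 to 181 CPM. Of 12 regulatory T cell markers 5 fell (Il2ra, Ctla4, Nrp1, Folr4 and Tnfrsf4) and 1 rose (Ikzf2), with Foxp3, their defining factor, at 11.3 and 8.19 CPM and not called. The part of these cell types in the results was not tested.

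**Figure D4:**
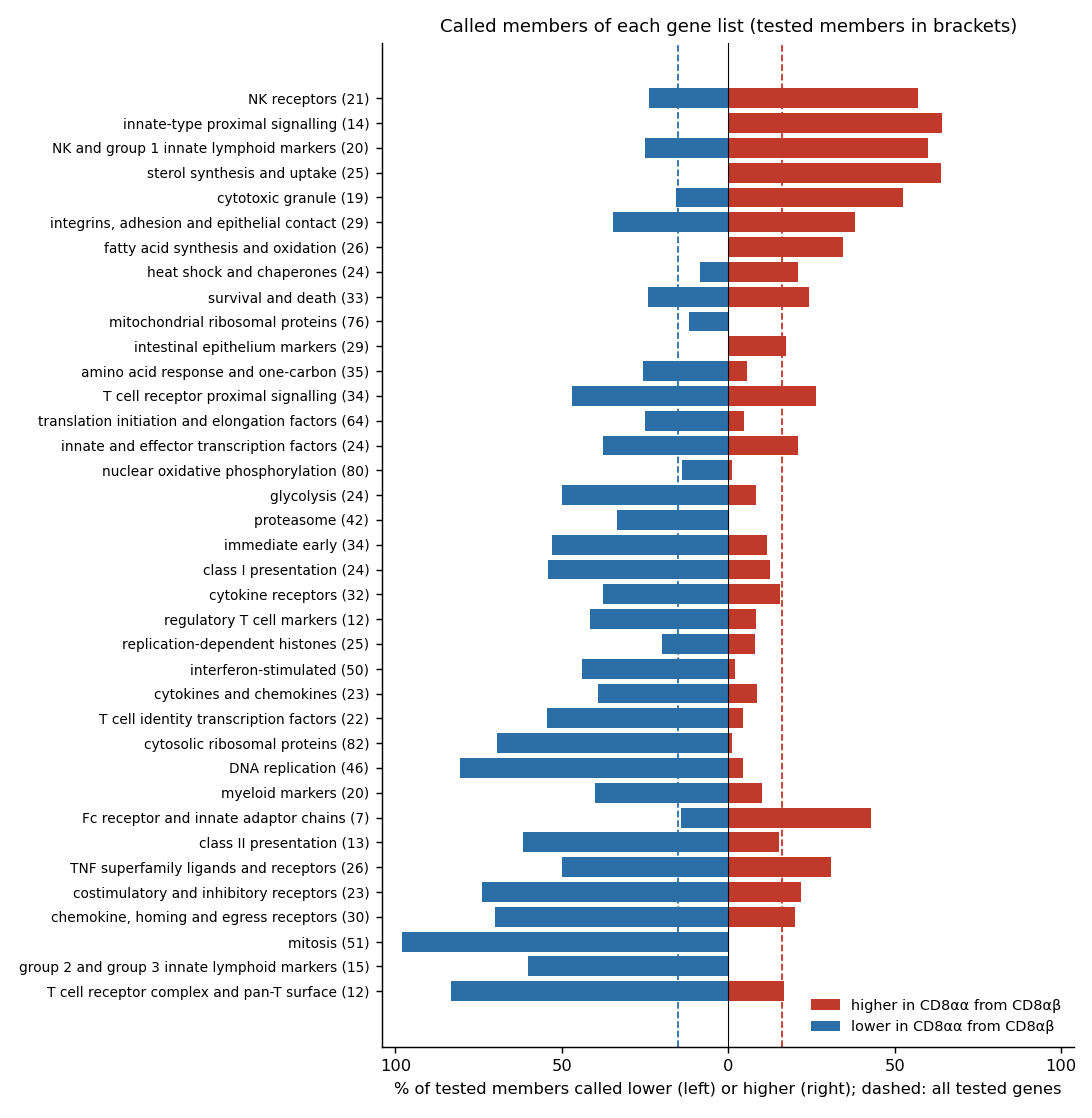
Share of tested members of 37 gene lists called higher (red, right) or lower (blue, left) in CD8αα from CD8αβ, ordered by median log2 fold change, with tested members in brackets. Dashed lines mark all tested genes, 16.1% higher and 15.1% lower. Mitosis, T cell receptor complex and DNA replication lists reach furthest to the left, and innate-type signalling and sterol lists have members on the right only.

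The transcripts that filled the libraries were partly shared. Among the 10 most abundant genes of each group, Actb, Gzma, H2-K1, H2-D1, B2m, Eef1a1 and Ccl5 appeared in both. Actb, cytoplasmic β-actin, was at 27786, 31654 and 28379.8 CPM in CD8αβ IEL against 14759.5, 17288 and 16299 CPM in CD8αα (−0.86 ± 0.13, edgeR adjusted p = 0.000156), lower in every CD8αα library. The CD8αβ IEL list was completed by Hspa8, Hspa1a and Tmsb4x, none of which was called, and the CD8αα list by Gzmb, Cd7 and Rgs1, each of which rose. The 10 most abundant genes took 7.92 to 9.67% of counts in CD8αβ IEL and 11.2 to 13% in CD8αα.

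The change was then set beside that of the CD4 progeny, CD8αα from CD4 minus CD4 IEL, which shares no library with it. Sex-linked transcripts separated those libraries too. Y-linked genes were at 449, 373 and 377 CPM in CD4 IEL and 0.341, 1.03 and 363 CPM in CD8αα from CD4. Xist was at 15.1, 36.4 and 0 CPM in CD4 IEL and 644, 485 and 1.25 CPM in CD8αα from CD4. The difference was not refitted without all such libraries together. Named genes include the 5 largest called differences each way in a test of the difference between both changes, so these pass by choice. That test called 323 of 12622 genes (2.56%), and among these were 36 of the named genes. The count was 200 when CD4 IEL replicate 2 was left out, 161 and 147 without replicates 2 and 3 of CD8αα from CD4, and 156 and 175 without CD8αα from CD8αβ replicates 1 and 3, and DESeq2 called 806. Cd8b1 was at −8.56 on the log2 scale here and Cd8a at 5.81 in the CD4 progeny, as the sorts require. The sorts do not require the rise of Cd8a here (0.46) or that of Cd8b1 in the CD4 progeny (1.76, from 5.05 to 17.4 CPM). Among genes that the sort did not use, the NKG2 genes Klrc1 and Klrk1 were at −5.98 and −4.63 here and at 1.12 and 0.69 there. Klrk1 was not called in the CD4 progeny (0.69 ± 0.49, edgeR adjusted p = 0.335). Gzmk was at −4.56 and −0.88, and Itga4 at −4.58 and −1.99. For Klrc1 the levels behind this were means of 239.6 CPM in CD8αβ IEL and 3.83 CPM in their CD8αα counterpart, against 13 CPM in CD4 IEL and 28.3 CPM in CD8αα cells of CD4 origin. Tnfsf8 rose here (3.67) and fell in the other (−2.08). Pecam1, Plcg2 and Acsl1 rose in both, more here than there (4.67 and 2.48, 4.61 and 2.75, and 3.54 and 1.69). Prf1 and Ccl5 rose in both, less here (1.28 and 2.91, and 0.90 and 3.12). All 4 groups enter each such difference, so a level in CD4 IEL or CD8αβ IEL bears on it as much as a level in either CD8αα group.

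**Figure D5:**
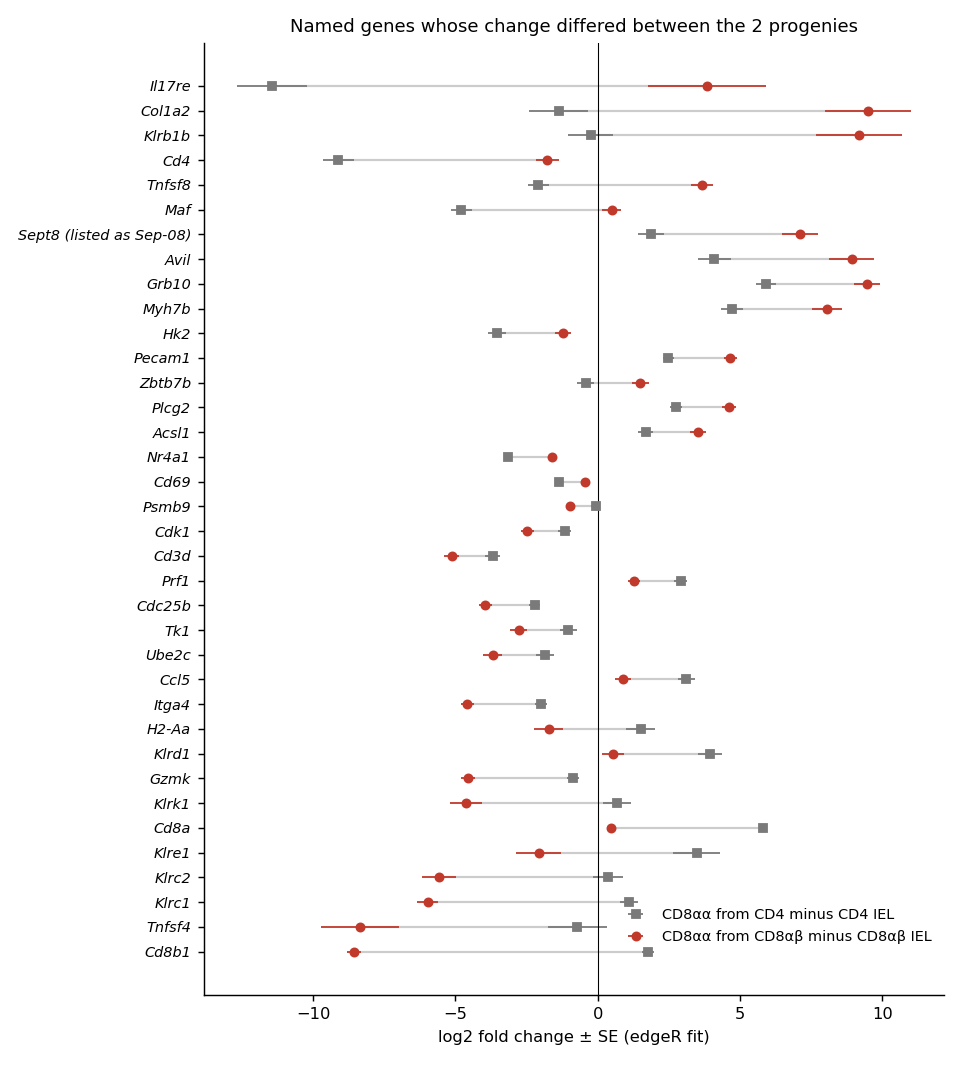
Log2 fold changes with their SE of the 36 named genes whose change differed between the progenies (edgeR test of the difference, adjusted p under 0.05), with CD8αα from CD8αβ minus CD8αβ IEL as red circles and CD8αα from CD4 minus CD4 IEL as grey squares. Some of the genes were named because this same test gave them the largest differences. Klrc1, Klrc2, Klre1 and Klrk1 lie left of 0 in red and right of 0 in grey, and Tnfsf8 the other way round. The grey change of Klrk1 was not called (edgeR adjusted p = 0.335).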

How the data were processed

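The deposited values are raw read counts per gene, 1 table for all 12 libraries. Reads had been aligned to mm10 with HISAT2 2.1.0, per the submitters' processing notes, and for the counter, annotation and strand setting nothing is stated in the labels. Assignments to paralogs, pseudogenes and overlapping or antisense genes are therefore uncertain. Of 25965 rows, 66 repeated or nameless rows (0.0202% of reads) were left out, and 11 rows of T cell receptor segments are not analysed here. Mitochondrial rows held 0 reads. Of the identifiers, 24986 matched GENCODE M21. Its processed pseudogene transcripts were aligned to its protein-coding transcripts with minimap2 2.31 to count pseudogenes by sequence. A match needed an identity of at least 90% and a cover of at least 50% of the pseudogene.

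Counts were fitted with edgeR 4.0.16 (R 4.3.3) over 12 libraries, 1 mean per group, with TMM scaling and filterByExpr (minimum count 10, minimum total 15). The quasi-likelihood test was 2-sided with Benjamini-Hochberg adjustment over 12622 genes, and a gene was called at an adjusted p under 0.05. Each SE was derived from this test, as the absolute log2 fold change over the square root of the F statistic. A group with 0 reads was set to 3 counts for a bound, and a group with 1 to 3 reads got a 95% counting interval. Intervals and bounds cover counting error only. Libraries of a group correlated at 0.926 to 0.967 and each pair differed beyond sampling noise (chi-square per gene 17.5 to 60.2). No pair thus looked like 1 library deposited again, and all were kept as separate samples. Whether they are separate animals is not shown by this.

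Members and lists were chosen with earlier results of these data known. Named genes were the main members of each list, the 8 largest rises and falls above the median level, the 10 most abundant genes of each group, up to 2 members of each list with the largest change, and the 5 largest differences between progenies each way. Members named beyond that rule, such as Cd6, Thy1, Txk, Icos, Tnf, Lef1, Cst7, Cdh1, Rfc2, Dhcr7 and Tap1, and members named because few of a list were called, were chosen after their values were seen. Alternatives were DESeq2 1.42.0, its size factors, library totals alone, no filter, a test against a 1.5-fold change, only the 6 libraries, a replicate block, pseudogene parents left out, and leaving out each library, and leaving out pseudogene parents by sequence was added after seeing the data. The method was tested on simulated counts. Some genes are not reported here.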

Additional observations from a re-analysis of the deposited data

Results flagged for a closer look

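At 36 named genes the change from CD8αβ IEL to CD8αα differed from the corresponding change in the CD4 progeny by edgeR's test of the difference itself (adjusted p under 0.05). Among all 12622 genes this test called 323 (2.56%). The named genes are not an independent count, since the 5 largest differences each way were named by this same test. Values are the log2 change in the CD8αβ progeny minus that in the CD4 progeny. Coreceptor genes that the sorts used were at 7.34 for Cd4, −5.35 for Cd8a and −10.32 for Cd8b1, and Zbtb7b, the regulator of CD4 fate, was at 1.92. Receptors of the NK complex gave −7.09 for Klrc1, −5.94 for Klrc2, −5.32 for Klrk1, −5.55 for Klre1 and −3.40 for Klrd1. Klrb1b was at 9.41, with 0 reads in CD8αβ IEL, so that its fitted value depends on the prior count.

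Effector genes were at −3.68 for Gzmk, −1.63 for Prf1 and −2.22 for Ccl5, and the signalling genes at 1.86 for Plcg2 and −1.44 for Cd3d. Adhesion and residence genes were at −2.58 for Itga4, 2.19 for Pecam1 and 0.93 for Cd69. Of the proliferation genes, −1.31 was found for Cdk1, −1.84 for Ube2c, −1.73 for Cdc25b and −1.75 for Tk1. The difference did not pass for Mki67, Top2a, Rrm2, Mcm5 and Pcna (edgeR adjusted p from 0.119 to 0.53). Nr4a1 and Hk2 fell less in the CD8αβ progeny than in the CD4 progeny, at 1.52 and 2.32. Presentation genes were at −3.23 for H2-Aa and −0.89 for Psmb9, and the lipid gene Acsl1 was at 1.84.

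Of the genes with the largest rises, Avil was at 4.83, Grb10 at 3.54 and Myh7b at 3.33. Sept8, which the deposited table lists as Sep-08 and which was matched by its Ensembl identifier, was at 5.23. Maf, a regulator of helper T cells, was at 5.28 and Tnfsf8 at 5.75. Tnfsf4 was at −7.64 with 1 read in CD8αα from CD8αβ, Col1a2 at 10.86 with 0 reads in CD8αβ IEL, and Il17re at 15.28 with 0 reads in CD8αβ IEL and in CD8αα from CD4. The fitted values of these 3 genes also depend on the prior count.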

How the results depend on the processing

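Beside the 3940 genes called (2030 higher and 1910 lower), DESeq2 called 4343, DESeq2 size factors 3957, library totals alone 3947, no filter on low counts 3812 and a fit of only the 6 libraries 3311. A test against a 1.5-fold change called 2158 (1116 higher and 1042 lower), fewer by its construction, and CD8αα replicate 2 alone left 1871 (1012 and 859). Leaving out 1 library gave 3128 to 3701 genes, with 1625 to 1871 higher and 1487 to 1831 lower. No gene of the 3940 was called in the opposite direction under any of these settings, and the share of calls that were higher ran from 47.1 to 54.1%. The difference between progenies was called at 806 genes by DESeq2 in place of 323, and at 147 to 368 without 1 library, and the cause was not tested.

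Same-numbered libraries of the compared groups had correlated deviations of 0.205, 0.326 and 0.098, and the labels do not say that a number marks a shared animal or day, so the numbers were not taken as pairs. With a replicate block 3945 genes were called, and 356 for the difference between progenies. Each library correlated best with its own number, which is a hint from the data and not the design. The block turned Muc2 to −0.120 on the log2 scale.

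Of 158 called named genes 113 kept the call under every alternative, 45 lost it under at least 1, and Xist alone changed direction (−2.91 with CD8αα replicate 2 alone). Of 29 uncalled named genes 8 were called under at least 1 alternative. With CD8αα replicate 2 alone the calls of Cd4, Cd8a, Bach2, Bank1, Bcl2l11, Cd74, Fasn, Gm13060, Hcst, Ikzf2, Ldha, Lyz2, Rfc2, Scd2 and Sqle also ended (edgeR adjusted p from 0.0526 to 0.22). Uncalled genes that changed sign when 1 library was left out were Tox (−0.127 to 0.176 over the libraries), B2m (−0.0885 to 0.144), Ccl4 (−0.570 to 0.00609), Slc2a3 (−0.468 to 0.0166), Fos (−0.308 to 0.0771), Irf7 (−0.864 to 0.0403), Tmsb4x (−0.391 to 0.0400), Fabp1 (−2.09 to 0.531), Muc2 (−2.91 to 1.5) and Il17re (0 to 4.42). With CD8αα replicate 2 alone Fos was at 0.0803, Tmsb4x at 0.183, Hspa1a at 0.237 and Fabp1 at 0.564. Tox was at −0.00386 and B2m at −0.0176 with pseudogene parents by sequence left out, and at −0.00126 and −0.0168 with library totals. Depth limits genes near 3 counts, 0.271 to 0.492 CPM.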
